A study of Mus musculus with 4 samples.

Results

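The colony-stimulating factor genes examined here are the receptors for M-CSF (Csf1r), GM-CSF (Csf2ra with Csf2rb), IL-3 (the Csf2rb2 chain) and G-CSF (Csf3r), and the M-CSF ligand gene Csf1. They were chosen by symbol, and all 6 were present among the 16360 symbols of the count table. The cells were recruited alveolar macrophages, sorted from male mice of the strain the labels call CD57/Bl6, aged 8 to 10 weeks. The gate took cells with high CD64 and CD11b and low Siglec-F. The mice were either wild type (WT) or homozygous for the R213G variant of EC-SOD, the extracellular superoxide dismutase. Both genotypes had received intratracheal bleomycin, 100 µl of a solution of 1 U/ml, 7 days earlier, and no library from uninjured lungs was analysed here. There were 2 libraries per genotype, 4 in all. The labels do not say whether a library came from 1 mouse or from pooled mice, so the p-values cover the spread between libraries and no more than that.

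M-CSF and IL-34 both bind the receptor tyrosine kinase encoded by Csf1r, which monocytes and macrophages need for survival and differentiation. GM-CSF, IL-3 and IL-5 each bind a ligand-specific alpha chain, which then pairs with a shared beta chain and signals through JAK2 and STAT5. In the lung, GM-CSF made by the alveolar epithelium drives the maturation of alveolar macrophages and their capacity to clear surfactant. G-CSF acts through a single-chain receptor that is best known from neutrophils and is also carried by monocytes.

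The mouse has a pair of beta-chain genes side by side on chromosome 15 (GRCm38). Csf2rb (ENSMUSG00000071713, 78325752 to 78353847, plus strand) encodes the common beta chain, and Csf2rb2 (ENSMUSG00000071714, 78282507 to 78305721, minus strand) encodes the beta chain used by IL-3 alone. Their coding sequences in GENCODE vM21 were identical at 2503 of 2628 aligned bases, or 95.2%. Both stretches below are shown because they set how far short reads could be assigned to one gene or the other. The first is the 75-base coding window, free of gaps, with the most mismatches. It holds 14 mismatches, marked by capitals, and runs from coding base 316 to 390 in Csf2rb and from 319 to 393 in Csf2rb2.
Csf2rb: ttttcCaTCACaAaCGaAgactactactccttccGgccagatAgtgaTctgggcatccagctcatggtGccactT
Csf2rb2: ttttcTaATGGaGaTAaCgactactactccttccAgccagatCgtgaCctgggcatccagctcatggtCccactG

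The second is the longest coding run shared without a mismatch, 242 bases from coding base 2083 to 2324 in both genes.
Csf2rb and Csf2rb2: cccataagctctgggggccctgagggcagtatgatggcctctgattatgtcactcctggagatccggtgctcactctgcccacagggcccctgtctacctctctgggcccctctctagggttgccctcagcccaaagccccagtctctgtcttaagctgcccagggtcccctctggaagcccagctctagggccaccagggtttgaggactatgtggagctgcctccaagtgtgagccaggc

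Over the whole transcripts, 18.4% of the 50-base windows of Csf2rb and 19.0% of those of Csf2rb2 occurred exactly in the other transcript. For windows of 100 bases the shares were 6.96% and 7.20%. A read inside such a window could not be placed uniquely, and the treatment of such reads is not given in the sources used here. The counts of the pair are therefore also given as a sum.

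Total counts were 33488569 to 35176210 per library, and 13584 to 15194 genes had at least 1 count, with the fewest in R213G replicate 1. All 6 genes passed the filter on low counts, with 890 to 45736 counts per library. They took 0.314% to 0.338% of all counts in a library. Of the genes of the sort gate, Fcgr1 (CD64) was at 243 to 261 CPM and Itgam (CD11b) at 721 to 886 CPM, while Siglecf was at 10.8 to 12.1 CPM. CPM is counts per 1000000 of the normalised library size.

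The question of the comparison was whether M-CSF, GM-CSF or G-CSF receptor transcripts differed between R213G and WT macrophages 7 days after bleomycin. None of the 6 genes passed the test, and neither did any other of the 13575 genes tested (edgeR quasi-likelihood with Benjamini-Hochberg adjustment, adjusted p = 0.9996 for each of the 6, background 0%). The transcripts of Csf1r and Csf2ra were among the most abundant of the cell and nearly the same in both genotypes. The transcripts of both beta chains and of Csf3r were lower in both R213G libraries than in both WT libraries, with fitted folds of 0.92 (Csf2rb), 0.882 (Csf2rb2) and 0.706 (Csf3r). At an unadjusted p under 0.05, 1 of the 6 was below the threshold, Csf3r, where 2.22% of all genes tested were (302 genes, 1.29% with R213G lower and 0.936% with R213G higher). DESeq2 called 1 gene of the whole table and limma voom 0, and neither called any of the 6.

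**Figure D1:**
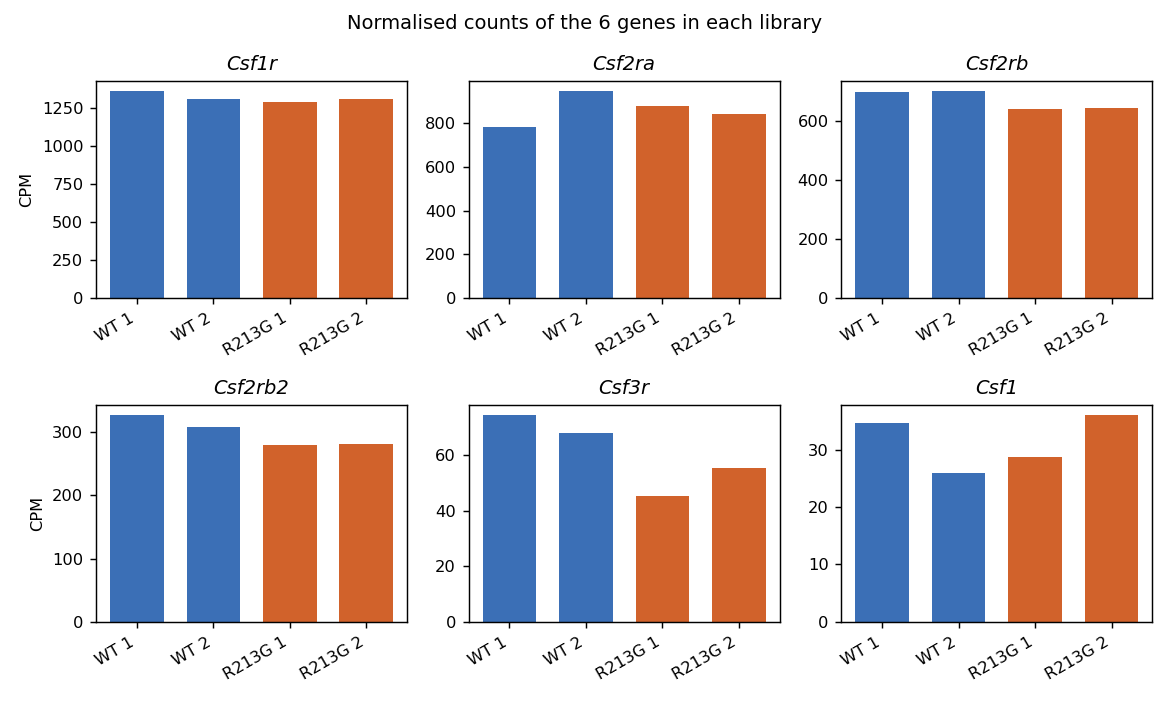
Normalised counts (CPM, y axis, each panel with its own scale from 0) of the 6 genes in each of the 4 libraries, WT in blue and R213G in orange, 1 bar per library. Csf1r lies between 1292 and 1363 CPM in all libraries, while the R213G bars of Csf2rb, Csf2rb2 and Csf3r all lie below the WT bars.

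Levels between genes were compared as CPM per kb of merged exons. Csf2ra, the GM-CSF-binding alpha chain, was highest with a mean of 301 CPM per kb over the 4 libraries (range 274 to 330), above 99.3% of the genes tested that had a length. Csf1r followed at 229 (224 to 236), then Csf2rb at 92.3 (88.2 to 96.3) and Csf2rb2 at 63.0 (58.9 to 69.0). Csf3r stood at 16.8 (12.5 to 20.6) and Csf1 at 5.94 (4.91 to 6.83). No neighbours in this order overlapped between their libraries. Per kb of coding sequence the order was the same, and Csf3r stayed above Csf1 within each library, although the ranges of Csf3r (18.0 to 29.7) and Csf1 (13.8 to 19.2) over the libraries then overlapped.

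**Figure D2:**
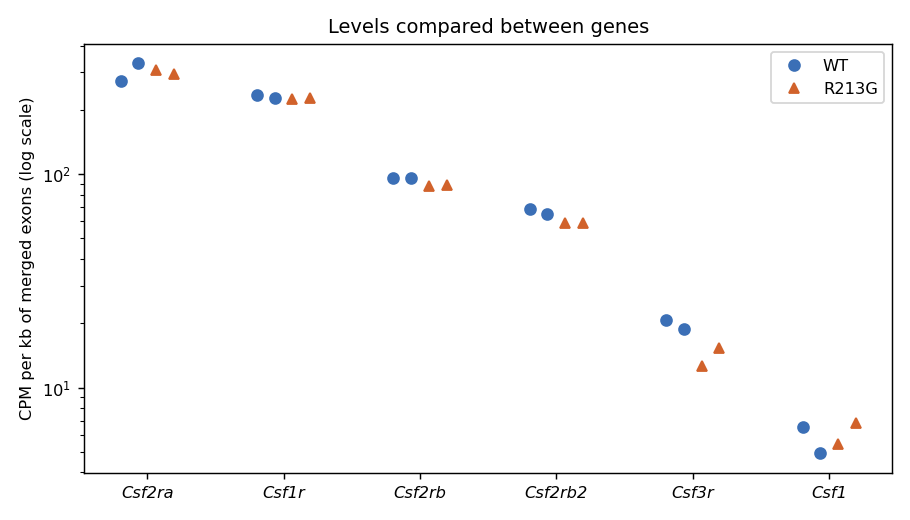
Level of each gene in CPM per kb of merged exons (y axis, log scale), with 1 point per library, WT as blue circles and R213G as orange triangles. The genes are ordered by their mean, from Csf2ra at 301 to Csf1 at 5.94 CPM per kb.

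Csf1r, the M-CSF receptor, had the steadiest level of the group. It was measured at 1292 and 1314 CPM in R213G replicates 1 and 2 and at 1363 and 1314 CPM in WT replicates 1 and 2. The genotypes overlapped, and the highest library exceeded the lowest by 1.05-fold. Of the 2088 genes with a mean of at least 100 CPM, 4.60% had a smaller ratio of highest to lowest library, and the median ratio was 1.18. The means were 1303 ± 15.9 CPM in R213G and 1338 ± 34.1 CPM in WT (SD, n = 2 each). The log2 fold change was -0.04 ± 0.11 (SE), and the 95% interval of the fold ran from 0.824 to 1.15. In bulk libraries fewer cells of a type and less RNA per cell cannot be told apart, here and for the other genes. Csf1r lies on chromosome 18, and exons of Hmgxb3 on the opposite strand overlap it in the annotation. The library kit was directional, but the strand setting of the counting is not given in the sources used here.

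Csf1, which encodes M-CSF itself, was a modest transcript of these cells. It lies on chromosome 3 (107741048 to 107760469, minus strand). The R213G libraries held 982 and 1255 counts and the WT libraries 1145 and 890, or 28.8 and 36.1 CPM against 34.7 and 25.9 CPM. Each genotype held a high and a low library, and the genotypes overlapped fully. The log2 fold change was 0.10 ± 0.22, and the 95% interval of the fold, 0.763 to 1.51, was the widest of the 6. Its sign turned to -0.08 with R213G replicate 2 left out and to -0.10 with WT replicate 2 left out. Per kb, Csf1r transcripts outnumbered Csf1 transcripts by 39.2-fold on average over the libraries.

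Lung cells other than macrophages also make M-CSF, so markers of such cells were read beside Csf1. Of 9 fibroblast and mural markers 2 were in the table: Col1a1 had 1 count in R213G replicate 2 and 0 in the other libraries, and Acta2 had 110 to 225 counts. The 5 endothelial markers in the table summed to 99.6 and 143 CPM in R213G and to 138 and 119 CPM in WT, nearly all of it Vwf, while Cdh5 was at 7 to 37 counts. The libraries highest in Csf1, R213G replicate 2 and WT replicate 1, were also the highest in that sum, and Acta2 was highest in R213G replicate 2. The library lowest in Csf1, WT replicate 2, was not the lowest in the sum. The part of such cells in the Csf1 level was not tested.

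Csf2ra, on chromosome 19 (61223957 to 61228429, minus strand), gave the same mean in both genotypes. It was measured at 878 and 844 CPM in R213G and at 786 and 947 CPM in WT, so the WT libraries enclosed both R213G libraries. The means were 861 ± 24.4 and 866 ± 114 CPM (SD, n = 2 each), with a log2 fold change of -0.01 ± 0.12 and a 95% interval of the fold from 0.821 to 1.20. The log2 fold change turned positive without WT replicate 2 (0.13) and without R213G replicate 2 (0.02), and it was -0.14 without WT replicate 1. The spread within WT, 0.27 on the log2 scale, was larger than the difference between the genotypes.

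Both beta chains were slightly lower in R213G. The common chain Csf2rb was at 642 and 646 CPM in R213G and at 699 and 701 CPM in WT, with pairs that lay close together and did not overlap. The log2 fold change was -0.12 ± 0.11, a fold of 0.92 with a 95% interval of 0.780 to 1.08 (edgeR quasi-likelihood, unadjusted p = 0.281). The IL-3 chain Csf2rb2 was at 279 and 281 CPM in R213G and at 327 and 308 CPM in WT, again without overlap. Its log2 fold change was -0.18 ± 0.11, a fold of 0.882 with an interval of 0.742 to 1.05 (unadjusted p = 0.135). Neither passed, and a fold of 1 lay inside both intervals.

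Added into 1 row, the beta chains had 921 and 926 CPM in R213G and 1026 and 1009 CPM in WT. The log2 fold change of the sum was -0.14 ± 0.11 (unadjusted p = 0.219, edgeR on the whole table refitted), so the sum was no nearer to the threshold than Csf2rb2 alone. Of the counts given to the pair, Csf2rb2 took 30.3% in both R213G libraries and 31.9% and 30.5% in WT. Per kb of merged exons the ratio of Csf2rb to Csf2rb2 was 1.50 in both R213G libraries and 1.39 and 1.48 in WT. The R213G and WT ratios did not overlap, but the log2 difference of 0.06 was smaller than the gap of 0.09 between the WT libraries. The size of the ratio depends on the length used. The merged exons of Csf2rb span 7.277 kb and its transcript 4900 bases, while those of Csf2rb2 span 4.74 kb and its transcript 4740 bases. By coding length, a choice made after seeing the data, the mean log2 ratio was 1.12 instead of 0.55. Since the 2 genes share sequence, parallel values are no independent support for each other.

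The balance of the GM-CSF receptor was read as the ratio of the alpha chain Csf2ra to the common beta chain Csf2rb. Per kb the R213G libraries gave 3.47 and 3.31 and the WT libraries 2.85 and 3.42, a ratio added after the data were seen. Since counts of the beta-chain genes may be exchanged, the ratio was also taken to both. Csf2ra exceeded the sum of Csf2rb and Csf2rb2 by 2.08-fold and 1.99-fold in R213G and by 1.66-fold and 2.05-fold in WT. WT replicate 1, the library lowest in Csf2ra, gave the low value of both ratios, and the genotypes overlapped in both. Csf2ra also exceeded Csf1r in every library, by 1.32-fold on average per kb, a ratio that was not among the planned ones.

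Csf3r, the G-CSF receptor, showed the largest difference of the group. It lies on chromosome 4 (126024550 to 126044440, plus strand), with no other annotated gene overlapping it. It had 1546 and 1926 counts in R213G against 2462 and 2335 in WT, or 45.3 and 55.4 CPM against 74.5 and 68.0 CPM. Every WT library was above every R213G library. The means were 50.3 ± 7.12 and 71.3 ± 4.57 CPM (SD, n = 2 each). The fold was 0.706, with a 95% interval of 0.551 to 0.905 that covers this gene taken alone.

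The log2 fold change of Csf3r was -0.50 ± 0.16 (edgeR quasi-likelihood, unadjusted p = 0.0109, adjusted p = 0.9996), the 16th smallest p of the table, and it did not pass after adjustment. It was -0.36 without R213G replicate 1 (unadjusted p = 0.0509), -0.66 without R213G replicate 2 (0.00289), -0.43 without WT replicate 1 (0.093) and -0.57 without WT replicate 2 (0.0374). The direction held in each of these 4 fits, but with genotypes that did not overlap, leaving out 1 library could hardly turn it. The size ranged from -0.66 to -0.36 with the library left out. Relative to Csf1r within the same library, Csf3r per kb was at 0.0561 and 0.0674 in R213G and at 0.0875 and 0.0828 in WT. Csf1r varied by only 1.05-fold between libraries, so this ratio largely restates the Csf3r values and is no second result. It was not among the planned ratios.

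**Figure D3:**
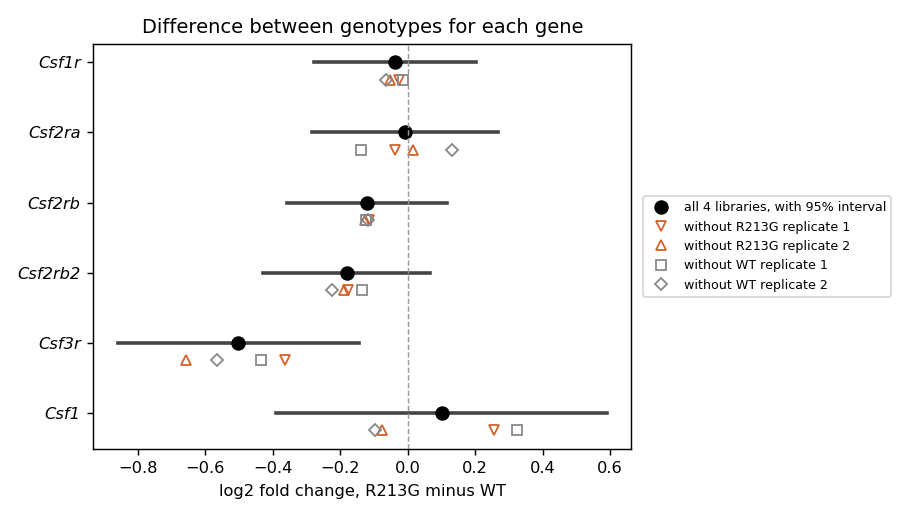
Log2 fold change (x axis, R213G minus WT) of each gene, with the estimate from all 4 libraries as a black point and its 95% interval as a line. The open symbols are the estimates with 1 library left out. Csf3r lies at -0.50 and its interval is the only one of the 6 that does not include 0, before any adjustment for the number of genes.

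Of the 6 genes, 5 had a negative fold change and 3 had libraries that did not overlap, all lower in R213G. Over all genes tested, 50.9% were negative, 28.9% did not overlap and 15.2% did not overlap with R213G lower. The median log2 fold change was -0.08 for the 6 genes and -0.01 for all genes. With 2 libraries per genotype an exact permutation test of a single gene has a smallest possible two-sided p of 0.33, so none was used.

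**Figure D4:**
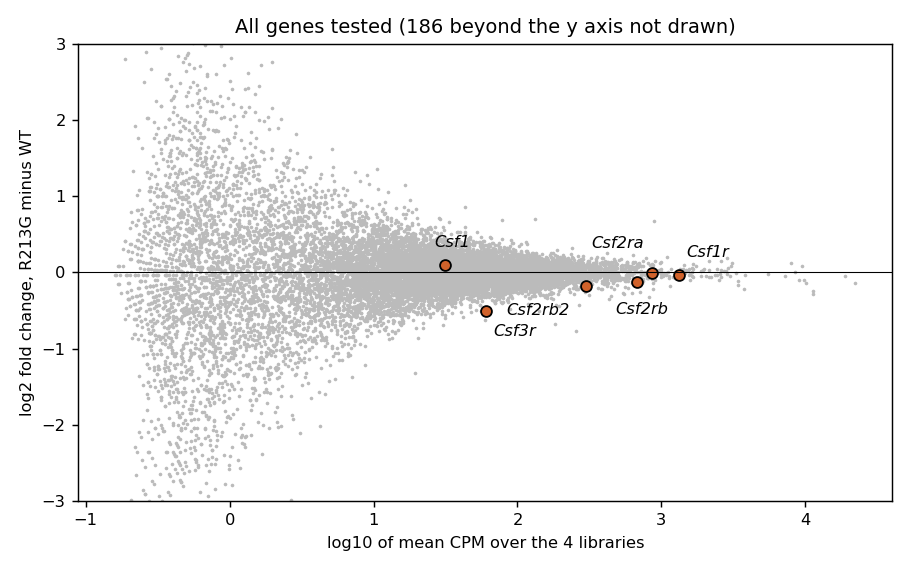
Log2 fold change (y axis, R213G minus WT) against the log10 of mean CPM (x axis) for the genes tested (grey), with the 6 genes in orange and 186 genes beyond the y axis not drawn. Csf3r lies at the lower edge of the genes of like abundance, and the other 5 lie within the cloud.

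Csf3r is a strong neutrophil transcript, so neutrophil markers were read beside it. Of 12 markers 5 were in the table, and the others are not analysed here. Their summed level was 91.4 and 104 CPM in R213G and 113 and 112 CPM in WT, which put R213G below WT as for Csf3r. Nearly all of that sum was Mmp8, a collagenase of neutrophil granules that other leukocytes can also express, at 70.7 and 90.0 CPM in R213G and 101 and 97.7 CPM in WT. Its log2 fold change was -0.31 ± 0.15 (edgeR quasi-likelihood, unadjusted p = 0.0719). S100a8, an abundant calcium-binding protein of neutrophils, went the other way, at 19.7 and 12.2 CPM against 11.1 and 13.2 CPM.

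The remaining neutrophil markers were near 0. S100a9 had 31 counts in R213G replicate 1 and 0 in the other 3 libraries. For the chemokine receptor Cxcr2 the R213G libraries held 0 and 33 counts and the WT libraries 0 and 35, and for the granule protein Ltf all libraries held 0 to 37. Without Mmp8 and S100a8 the markers summed to 0.908 and 2.01 CPM in R213G and to 0.636 and 1.31 CPM in WT. The cells had been sorted for high CD64, and the part of neutrophil RNA in the Csf3r difference was not tested.

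Monocytes carry Csf3r as well, and the 9 monocyte markers were mixed. Their sum, 906 and 717 CPM in R213G and 831 and 885 CPM in WT, overlapped and was mostly the chemokine receptor Ccr2. F13a1, a subunit of coagulation factor XIII, was lower in both R213G libraries, at 130 and 151 CPM against 274 and 175 CPM in WT. Its log2 fold change was -0.68 ± 0.19 (edgeR quasi-likelihood, unadjusted p = 0.0065, adjusted p = 0.9996). Plac8 was lower too, with 0 and 14 counts against 45 and 28, and Treml4 was higher without overlap, with 95 and 113 counts against 34 and 87. For the 9 markers, libraries thus did not overlap for 3, against 28.9% of all genes. The part of monocyte content in the Csf3r difference was not tested.

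**Figure D5:**
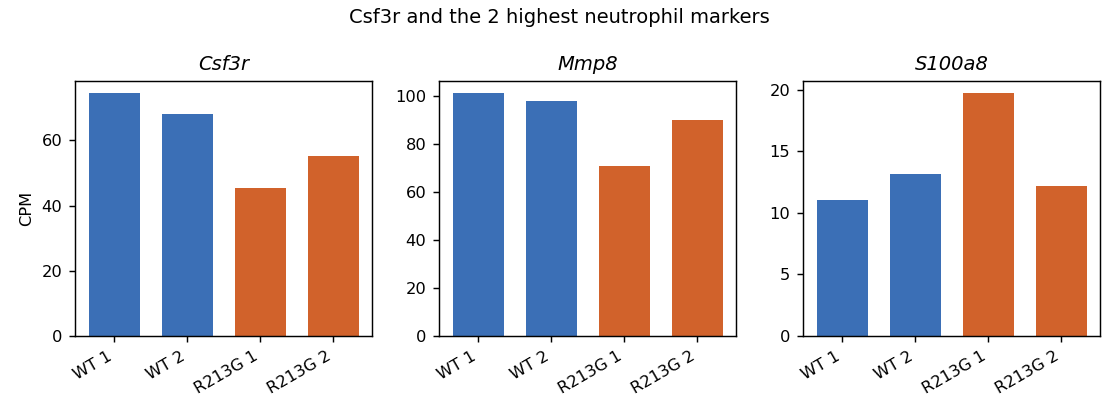
CPM (y axis, from 0, each panel with its own scale) of Csf3r and of the 2 highest neutrophil markers in each library, WT in blue and R213G in orange. Csf3r and Mmp8 are lower in both R213G libraries, and S100a8 is highest in R213G replicate 1 at 19.7 CPM.

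The only other receptor of these families that was analysed was Il3ra, the IL-3-specific alpha chain. It was at 44.6 and 55.5 CPM in R213G and at 61.5 and 51.6 CPM in WT, so the genotypes overlapped (log2 fold change -0.18 ± 0.17). Its exons overlap an antisense gene model in the annotation. The ligand genes Il34, Csf2, Csf3, Il3 and Il5 and the receptor gene Il5ra are not analysed here.

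Downstream of Csf1r, 0 of 20 signalling genes passed in either direction, with 9 positive and 11 negative and a median log2 fold change of -0.01, as for all genes at this rounding. The adaptor Tyrobp (DAP12), the most abundant of them, was at 865 and 882 CPM in R213G and at 938 and 829 CPM in WT. Pik3r1, the regulatory subunit of PI3-kinase, was at 98.9 and 106 CPM against 131 and 112 CPM, without overlap (log2 fold change -0.24 ± 0.14). Cbl, the ubiquitin ligase that marks activated CSF1R for degradation, was at 226 and 263 CPM against 292 and 277 CPM, also without overlap (-0.21 ± 0.12). Pik3cb, a catalytic subunit of PI3-kinase, stood on the other side at 65.0 and 62.1 CPM against 60.5 and 53.6 CPM. Among the 20, libraries did not overlap for 5, with R213G lower for 2 and higher for 3, no more than the 28.9% of all genes.

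The JAK-STAT list for the beta chains and Csf3r held JAK and STAT genes together with adaptors, feedback inhibitors and target genes. It gave 0 of 15 past the threshold, with 7 positive, 8 negative and a median of 0.00. Stat5a, a transcription factor activated by GM-CSF, was at 46.8 and 59.7 CPM in R213G and at 74.4 and 52.0 CPM in WT. WT replicate 1 alone was high, and without it the log2 fold change moved from -0.24 to 0.04. The adaptor Shc1 was at 86.6 and 75.5 CPM against 69.4 and 70.0 CPM, without overlap. That held for 1 of the 15 genes, against 28.9% of all genes. The kinase gene Pim1, a STAT5 target, was at 222 and 191 CPM against 187 and 195 CPM. Mcl1, a survival gene of the Bcl2 family, was the most abundant of the list at 781 and 743 CPM against 743 and 773 CPM.

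Genes of the GM-CSF-dependent alveolar programme gave 0 of 14 past the threshold. There were 12 positive and 2 negative fold changes, where 6659 of all 13575 genes tested were positive. The median was 0.13, against -0.01 for all genes. Some of the 12 were very small, such as Cd36 at 0.0002 and Bhlhe41 at 0.05. Pparg, the nuclear receptor that GM-CSF induces in maturing alveolar macrophages, was at 41.3 and 40.8 CPM in R213G and at 25.8 and 36.3 CPM in WT. These libraries did not overlap, and the log2 fold change of 0.40 ± 0.20 became 0.17 without WT replicate 1. The lipase gene Lpl, the most abundant of the list, was at 1120.5 and 1215 CPM against 874 and 1153 CPM, with WT replicate 1 alone low.

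For Marco and Ccl24 of that programme, the fold change depended largely on a single library. The scavenger receptor gene Marco was at 7.94 and 23.6 CPM in R213G and at 7.38 and 9.33 CPM in WT. Its log2 fold change of 0.92 ± 0.48 became -0.08 without R213G replicate 2. For the chemokine gene Ccl24 the R213G libraries held 0 and 17 counts and the WT libraries 11 and 434. The high count was that of WT replicate 2, and without that library the log2 fold change was -0.43 instead of -4.72. Siglecf and Pparg were the only genes of the 14 without overlap, both higher in R213G, where 28.9% of all genes did not overlap and 13.7% were higher without overlap. Pparg, Marco, Car4, Fabp4 and Siglecf also count among the markers of resident alveolar macrophages. The 10 markers of that list summed to 473 and 424 CPM in R213G and to 327 and 752 CPM in WT. The most abundant of them, Chil3, was at 198 and 177 CPM in R213G and at 134 and 504 CPM in WT. The high sum of WT replicate 2 was thus mostly Chil3. The part of resident cells was not tested.

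Among 12 regulators of Csf1r transcription and shedding, 0 passed, with 4 positive, 8 negative and a median of -0.04. Cebpa, a myeloid transcription factor and the most abundant of the list, was at 763 and 862 CPM in R213G and at 849 and 790 CPM in WT. Maf, a macrophage transcription factor, was at 114 and 141 CPM against 165 and 142 CPM, and Ets2 at 36.0 and 36.6 CPM against 40.7 and 45.9 CPM. Both had libraries that did not overlap, though the values of Maf in R213G replicate 2 and WT replicate 2 nearly met. They were the only 2 of the 12 without overlap. Over all genes tested, 28.9% did not overlap and 15.2% did not overlap with R213G lower. Cebpb, which inflammatory signals induce, was at 794 CPM in R213G replicate 1 and at 552 to 613 CPM in the other 3 libraries. Its log2 fold change of 0.23 ± 0.15 was -0.02 without R213G replicate 1.

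For 4 of the genes, the 3 genes with the most similar profile over the 4 libraries were named among 9689 other genes with a mean of at least 5 CPM. The measure was the root-mean-square difference of log2 CPM after centring each gene on its own mean. The genes nearest to Csf1r were Nrd1, Tnfrsf1a and Ifngr2, with differences of 0.0062, 0.0065 and 0.0068. Nearest to Csf2rb were Ap1s2, Ubb and Rnpep (0.0095 to 0.012), and Csf2rb2 stood at rank 202 with 0.044. The genes nearest to Csf3r were Nbeal1, Pfkm and Pcf11 (0.023 to 0.030), and the nearest of the other 5 receptor and ligand genes was Csf2rb2 at rank 1029. Ppp1r16a, Lzic and Mak were nearest to Csf1 (0.0071 to 0.018). With 4 libraries many genes share a profile, so these names describe the libraries only.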

How the data were processed

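Poly(A) RNA from sorted recruited alveolar macrophages was sequenced as directional libraries, 2 per genotype. The values the authors deposited are unnormalised counts, by gene symbol and library. STAR 2.5.1b, Subread 1.4.4 with its featureCounts, and GRCm38 are named in the submitters' processing notes. The sources used here do not give the annotation release, the strand and multi-mapping settings or any filter. Each column carried the short name of its sample, and the titles gave the groups.

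R213G was compared with WT by the edgeR 4.0.16 quasi-likelihood test (R 4.3.3, newer form, robust, TMM, filterByExpr by genotype, 13575 genes) on the whole table, with Benjamini-Hochberg adjustment and a threshold of 0.05. It had 2 residual degrees of freedom and a biological coefficient of variation near 0.374. The p-values and intervals also borrowed information on the spread from the other genes, beyond these 2 degrees of freedom. A gene's SE was the log2 fold change divided by the square root of F. The 95% intervals used the test's t distribution, without adjustment for the number of genes. Positions and exon lengths came from GENCODE vM21 (GRCm38) by symbol, and coding sequences were aligned with Biopython 1.88. Scripts were tested on simulated data.

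The 6 genes and the gene lists were chosen with earlier results of these data known. Named from each pathway list were the 3 genes of smallest unadjusted p and the most abundant one; from each marker list, the most abundant and any at 0 in all libraries. All receptors and ligands of the families were named. Siglecf, Fcgr1, Itgam, Car4, Fabp4, Acta2, Col1a1, Cdh5, F13a1, Plac8, Treml4 and the lower neutrophil markers were named after their values were seen. The same holds for Cd36, Bhlhe41 and the lower endothelial and dendritic cell markers. The most abundant genes of the other marker lists were Lyz2, Ccr2, Chil3, Bst2, Kit, Il7r, Cd79b, Hopx and mt-Co1, and none of them passed. Bst2 did not stand for the other dendritic cell markers. Flt3, Ccr7, Itgae, Cd209a and Zbtb46 were higher in replicate 1 than in replicate 2 of both genotypes, as was Kit. Flt3 was at 20.2 and 6.29 CPM in R213G and at 30.6 and 7.11 CPM in WT. Xcr1, Clec9a and Siglech had at most 36 counts in a library. The part of dendritic cells was not tested. Alternatives were other scalings, filters and tools (DESeq2 1.42.0, limma voom 3.58.1), a replicate block and leaving out each library. The SEs, intervals and p-values rest on the spread between libraries and not on counting error alone. No molecular identifiers were used here.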

Additional observations from a re-analysis of the deposited data

How the results depend on the processing

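Under the 12 other fits of the whole table, none of the 6 genes was called. Csf1r, Csf2rb, Csf2rb2 and Csf3r kept their negative sign in all 12. For Csf2rb, Csf2rb2 and Csf3r, whose libraries did not overlap, leaving out 1 library could hardly turn it. Leaving out 1 library gave log2 fold changes of -0.06 to -0.01 for Csf1r, -0.13 to -0.12 for Csf2rb, -0.22 to -0.14 for Csf2rb2 and -0.66 to -0.36 for Csf3r. Over the scalings, filters and tools with all libraries, Csf3r stayed between -0.51 and -0.50, with unadjusted p from 0.00901 to 0.0133 and adjusted p of at least 0.993. The sum of the beta chains, also without overlap, kept its sign in all fits and was not called.

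The sign turned when 1 library was left out for Csf2ra (-0.14 to 0.13), Csf1 (-0.10 to 0.32), Tyrobp (-0.10 to 0.075), Stat5a (-0.48 to 0.036), Mcl1 (-0.029 to 0.041), Marco (-0.079 to 1.50), Cebpb (-0.020 to 0.45) and Cebpa (-0.11 to 0.073). The cause was not tested. The count of genes called in the whole table was 0, and it was 1 by DESeq2, 0 to 2 with 1 library left out and 302 at an unadjusted p under 0.05, of which 1 was among the 6 genes. That unadjusted count was 71 without WT replicate 1 and 1960 without R213G replicate 2.

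With the replicate number as a block, 0 genes were called and 298 had an unadjusted p under 0.05, and the log2 fold change of Csf3r was -0.51. The labels do not say that a number marks a shared litter or day. The deviations of equally numbered libraries had a correlation of 0.09 across 13575 genes and of 0.19 across the 9690 genes averaging 5 CPM or more, and genes are not independent replicates. With coding length in place of exon length, a choice made after seeing the data, the mean log2 ratio of Csf2rb to Csf2rb2 was 1.12 instead of 0.55, and that of Csf1 to Csf1r -4.77 instead of -5.28, by construction of the length alone. A protein table was not used here, so coding length was taken from the gene models.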
